A study of Mus musculus with 186 samples.

Results

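This report covers 10 genes of the transforming growth factor beta (TGF-beta) pathway in the brains of Akap11 mutant mice, out of 28338 genes in the count table. They are Pmepa1, the ligands Tgfb1, Tgfb2 and Tgfb3, the receptors Tgfbr1 and Tgfbr2, the signal carrier Smad3, and the feedback or brake genes Smad7, Skil and Ldlrad4. The set was chosen by Pmepa1, selected on its fitted difference between knockout and wild type: its transcript was lower in knockout striatum at both ages and in knockout substantia nigra at 12 weeks. Those 3 Pmepa1 differences are therefore given as a description with no test. All 10 genes were found in the table.

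TGF-beta ligands are secreted in a latent form and, once released, bind a pair of receptor kinases, Tgfbr2 and Tgfbr1. The receptors phosphorylate Smad2 and Smad3, which enter the nucleus with Smad4 and switch target genes on or off. Several of those targets act as brakes. Pmepa1 and its relative Ldlrad4 are membrane proteins that hold Smad2 and Smad3 away from the receptor, Smad7 blocks and degrades the activated receptor, and Skil (SnoN) is a nuclear corepressor of the Smads. In the brain the pathway is known for roles in neuron survival, synapse formation and the state of glia.

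The study used bulk RNA sequencing of poly(A) RNA from 6 brain regions dissected from frozen tissue, namely striatum, substantia nigra, thalamus, hippocampus and the prefrontal and somatosensory cortex. Mice were wild type, heterozygous or knockout for Akap11, which encodes a scaffold protein that anchors protein kinase A, and were 4 or 12 weeks old, which makes 36 groups. Of these, 30 groups had 5 libraries and 6 groups had 6 libraries, 186 in all. The sources used here do not give the allele, strain or sex of the mice or any pooling of animals, and none says that libraries of a group came from separate animals, so p-values measure the spread between these libraries. Levels are CPM, counts scaled to a common library size and normalised over all 186 libraries, and differences are log2 fold changes from a model fitted to all genes. A gene is said to have risen or fallen, or to be called, where the Benjamini-Hochberg adjusted p over all genes tested was under 0.05.

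Total counts were 20.8 M to 73.3 M per library (mean 46.1 M ± 9.60, SD). Akap11 itself, the check on the genotype labels, fell by 3.65 to 4.30 on the log2 scale in the 12 comparisons of knockout with wild type. In heterozygotes its difference from wild type was -0.99 to -0.69. It was not called there in 4-week hippocampus (adjusted p = 0.273) or 4-week nigra (adjusted p = 0.548). In striatum at 4 weeks its level was 374 to 436 CPM in wild type, 195 to 222 in heterozygotes and 16.8 to 21.5 in knockouts. Some 4-week libraries stood apart from their group. In striatum, the summed level of 6 markers of cortical and hippocampal excitatory neurons was 704 to 1486 CPM in 3 knockout libraries (KO 51, KO 161 and KO 163) and 803 CPM in 1 wild-type library (WT 92), against 3.48 to 20.7 CPM in the other wild-type libraries and 3.80 and 5.00 CPM in the remaining 2 knockouts. In 4-week nigra, the dopamine neuron markers summed to 33.1 CPM in WT 42, 154 in KO 91 and 164 in KO 44, against 965 to 2779 in 4 of the other wild-type libraries and 221 in WT 92, a library whose Akap11 level was also low at 44.8 CPM. For all members, the comparisons of genotypes, regions and ages were refitted without these libraries. The comparison of the knockout difference between ages was not. In 4-week striatum of heterozygotes the cortical markers summed to 114 CPM in HET 931 and 50.7 CPM in HET 162. The other heterozygotes held 3.83 to 9.07 CPM. The refits without the libraries that stood apart kept HET 931 and HET 162. In the wild-type comparisons of regions at 4 weeks, leaving out WT 92 of striatum and WT 42 and WT 92 of nigra changed no call of a member in striatum, nigra, thalamus, hippocampus or somatosensory cortex. In prefrontal cortex it made Tgfbr1 a called gene (-0.21, adjusted p = 0.0309). Some member values that moved are given below with and without these libraries, while group means and ranges in CPM include them. Between knockouts and wild types no call of a member tested changed. There, 2 members changed sign in 4-week nigra without WT 92. In 4-week thalamus 3 did so without 3 wild-type libraries with low thalamic markers, named below. Between ages in nigra 2 members changed sign.

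RefSeq promoter windows (build GRCm38.p6, the 250 bases before a transcript start) were given for 5 of the 10 genes: Tgfb1, Tgfb2, Tgfbr1, Tgfbr2 and Smad3. No window was given for Pmepa1, Tgfb3, Smad7, Skil or Ldlrad4. The windows of Tgfb2 and Smad3 are shown because Tgfb2 is the ligand whose transcript differed between regions and in knockout striatum, and Smad3 is the signal carrier whose level separated forebrain from thalamus and nigra. Tgfb2 lies on the minus strand of chromosome 1 and its window is chr1:186705990-186706239. Smad3 lies on the minus strand of chromosome 9 and its window is chr9:63757995-63758244. Both are printed 5′ to 3′ along the gene, with motif matches in capitals.
Tgfb2: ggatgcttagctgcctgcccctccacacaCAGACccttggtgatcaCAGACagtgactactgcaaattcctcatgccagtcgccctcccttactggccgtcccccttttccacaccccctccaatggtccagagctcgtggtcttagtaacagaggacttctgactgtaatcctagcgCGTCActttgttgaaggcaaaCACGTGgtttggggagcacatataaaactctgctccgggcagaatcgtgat
Smad3: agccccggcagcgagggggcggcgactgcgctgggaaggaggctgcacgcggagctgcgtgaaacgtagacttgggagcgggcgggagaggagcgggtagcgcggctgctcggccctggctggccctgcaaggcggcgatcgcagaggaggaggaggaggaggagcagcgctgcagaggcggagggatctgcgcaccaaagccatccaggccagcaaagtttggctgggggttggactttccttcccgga

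The Tgfb2 window held 2 copies of CAGAC, the short sequence that Smad3 and Smad4 bind, starting 221 and 204 bases before the transcript start. It also held CGTCA, the reverse complement of the cyclic AMP half-site TGACG, 72 bases before the start. The E box CACGTG lay 51 bases before the start. These are common short sequences: on either strand, 42.2% of 32851 windows of this length in the RefSeq table held CAGAC, 17.8% held TGACG and 6.02% held CACGTG. The full cyclic AMP element TGACGTCA, which contains the half-site, was in 1.55% of windows. The Smad palindrome GTCTAGAC was in 0.167%, and the AP-1 site TGACTCA or its reverse complement TGAGTCA in 4.46%. None of these was in the members' windows. CAGAC was also in 1 window of Tgfbr1, 203 bases before the start, and in that of Tgfbr2, 160 bases before it, so 3 of the 5 genes with a window held it. The EGR site GCGGGGGCG (2.57%) was in 1 window of Tgfbr1. No searched sequence was in the Smad3 window, whose base composition was 69.2% G and C against 53.6% for Tgfb2 and a median of 52.4% over all windows.

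In wild-type mice, Pmepa1 was a striatum-enriched transcript. Its gene spans chr2:173224458-173276533 (GRCm38) on the minus strand. At 4 weeks the mean level was 158 ± 31.0 CPM in striatum (SD, n = 5), 83.7 ± 5.87 in somatosensory cortex (n = 5), 62.9 ± 5.41 in prefrontal cortex (n = 5), 47.5 ± 6.95 in nigra (n = 6), 37.3 ± 4.82 in thalamus (n = 6) and 32.3 ± 3.5 in hippocampus (n = 6). At 12 weeks it was 128 ± 15.5 CPM in striatum, 66.0 ± 3.86 in somatosensory cortex, 55.8 ± 3.04 in prefrontal cortex, 49.5 ± 2.58 in nigra, 34.3 ± 7.49 in hippocampus and 34.1 ± 3.66 in thalamus (n = 5 each). Striatum, both cortices and nigra kept their order at both ages, while hippocampus and thalamus shared the bottom. Of the 10 pairs of neighbours in these orders, 8 differed in a two-sided exact permutation test of the mean log2 level (adjusted p over the 10 pairs 0.0132 to 0.0198). The exceptions were thalamus and hippocampus, at 4 weeks (adjusted p = 0.0986) and at 12 weeks (adjusted p = 0.937), both by the same exact test. The same replicate numbers recur in different regions, the labels do not say whether they mark the same animals, and the test takes the libraries as independent. Deviations of same-numbered wild-type libraries in 2 regions had a mean correlation of 0.052 at 4 weeks and 0.134 at 12 weeks, against -0.0092 and -0.033 for different numbers. In each of those 8 pairs of regions, every same-numbered pair of libraries (4 to 6 of them) had more Pmepa1 in the region with the higher mean. No paired test was made; the smallest two-sided p of an exact one is 0.0625 with 5 pairs and 0.0312 with 6.

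**Figure D1:**
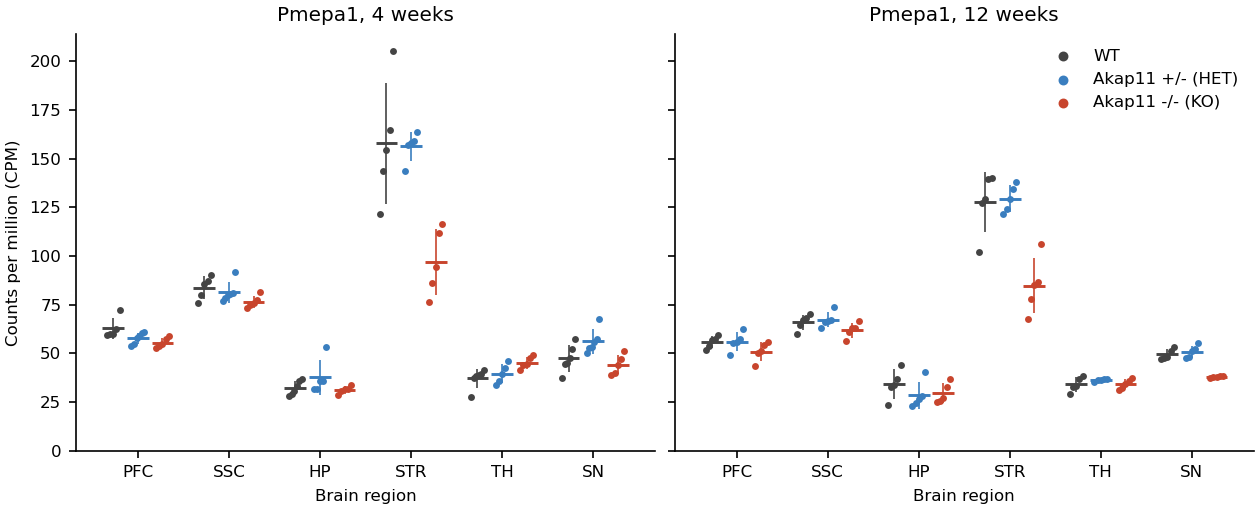
Pmepa1 level (CPM, vertical axis) in each of the 186 libraries, by region, age and genotype; each point is a library, and bars and lines are group means with SD. Wild-type striatum holds the highest levels (means 158 and 128 CPM), and the knockout striatum means (97.0 and 84.7 CPM) lie below them.

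Against the mean of the other 5 regions, wild-type striatum had more Pmepa1 (log2 difference 1.70 ± 0.08, SE, at 4 weeks and 1.48 ± 0.07 at 12 weeks; adjusted p = 1e-17 and 4.36e-17). Of the 10 members, 5 were higher and 2 lower in striatum at 4 weeks, where 52.9% of all genes tested were called, and 4 were higher and 3 lower at 12 weeks, where 67.3% were called. The members thus passed at 7 of 10 in a comparison where most genes passed. The largest differences lay with Pmepa1, Skil and Ldlrad4 among the brakes and with the signal carrier Smad3. Smad7, also a brake, was not among them, and its 4-week means were higher in nigra and thalamus than in striatum (given below). Skil was higher by 1.51 ± 0.17 and 1.31 ± 0.08, Smad3 by 1.20 ± 0.18 and 1.21 ± 0.07, and Ldlrad4, the relative of Pmepa1, by 1.14 ± 0.09 and 1.10 ± 0.09 (4 and 12 weeks, adjusted p 1.03e-06 or lower).

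The ligands went the other way or did not pass. In striatum the Tgfb2 difference was -0.76 ± 0.19 for the younger mice (adjusted p = 0.000978) and -0.90 ± 0.14 for the older (adjusted p = 2.42e-06). Tgfb3 was also lower, with called differences of -0.56 and -0.45. Tgfb1 did not pass at either age. Of the receptors, Tgfbr1 did not pass and Tgfbr2 was lower at 12 weeks (-0.49, adjusted p under 0.05 in all 30 refits that left out 1 library).

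Tgfb2 was foremost a hippocampal transcript. Its 6 wild-type hippocampal libraries at 4 weeks held 52.0 to 60.9 CPM (mean 56.8 ± 4.20, SD), and its 5 libraries at 12 weeks held 46.9 to 60.4 CPM (mean 53.3 ± 6.25). The means of the other 5 regions were 7.31 to 13.8 CPM at 4 weeks and 5.75 to 11.5 CPM at 12 weeks. No other wild-type library reached the hippocampal range, the highest being a 4-week thalamic library (WT 913) at 23.9 CPM. The hippocampal excess over the mean of the other regions was 2.69 ± 0.14 and 2.78 ± 0.11 on the log2 scale (adjusted p = 6.18e-15 and 5.22e-19), where 36.4% and 54.4% of genes were called. An antisense gene, Gm29491, overlaps exons of Tgfb2. Libraries were made with a stranded kit, but no source used here says whether counting used the strand, and the same holds for Tgfb3 with Ttll5 and for Ldlrad4 with Fam210a.

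Smad3 split the forebrain from thalamus and nigra. At 12 weeks its mean was 109 ± 4.13 CPM in striatum, 106 ± 7.67 in prefrontal cortex, 94.9 ± 9.17 in hippocampus and 90.3 ± 10.2 in somatosensory cortex, against 17.3 ± 1.87 in nigra and 15.2 ± 2.64 in thalamus (n = 5 each). Set against the average of the 5 remaining regions, thalamus differed by -2.22 ± 0.09 at 12 weeks and -1.55 ± 0.20 at 4 weeks. Nigra differed by -1.99 ± 0.09 and -1.95 ± 0.21 (all 4 adjusted p 2.18e-07 or lower). In the thalamus 1 library (WT 913) of the 6 wild-type libraries at 4 weeks reached 45.3 CPM while the lowest held 10.6. Without WT 913, WT 914 and WT 23, the 3 thalamic libraries with low thalamic markers, the 4-week thalamic difference was -2.03 ± 0.19. Without the libraries of striatum and nigra that stood apart, the 4-week nigral difference was -1.77 ± 0.23.

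Smad7, the receptor-blocking Smad, had another order. At 4 weeks its wild-type mean was 55.8 ± 11.9 CPM in nigra, 50.7 ± 11.1 in thalamus, 43.6 ± 6.57 in striatum and 24.3 ± 2.61 in somatosensory cortex. The libraries of nigra (43.7 to 71.4 CPM) and thalamus (33.4 to 60.9 CPM) overlapped, and these means are not shown to differ. The highest values in nigra were those of WT 92 (71.4 CPM) and WT 42 (64.3 CPM), both with low dopamine neuron markers. The 5 thalamic markers summed to 2626 CPM in WT 42 and to 143 to 651 CPM in the other 5 wild-type nigral libraries, and their part in the Smad7 level was not tested. Nigra was above the mean of the other regions by 0.66 ± 0.10 and somatosensory cortex below it by 0.72 ± 0.12 on the log2 scale (adjusted p = 3.17e-06 and 2.47e-05). Without the libraries of striatum and nigra that stood apart, the nigral difference was 0.52 ± 0.12 (adjusted p = 0.000477). Both regions kept that side at 12 weeks, with differences of 0.36 ± 0.08 and -0.59 ± 0.09.

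**Figure D2:**
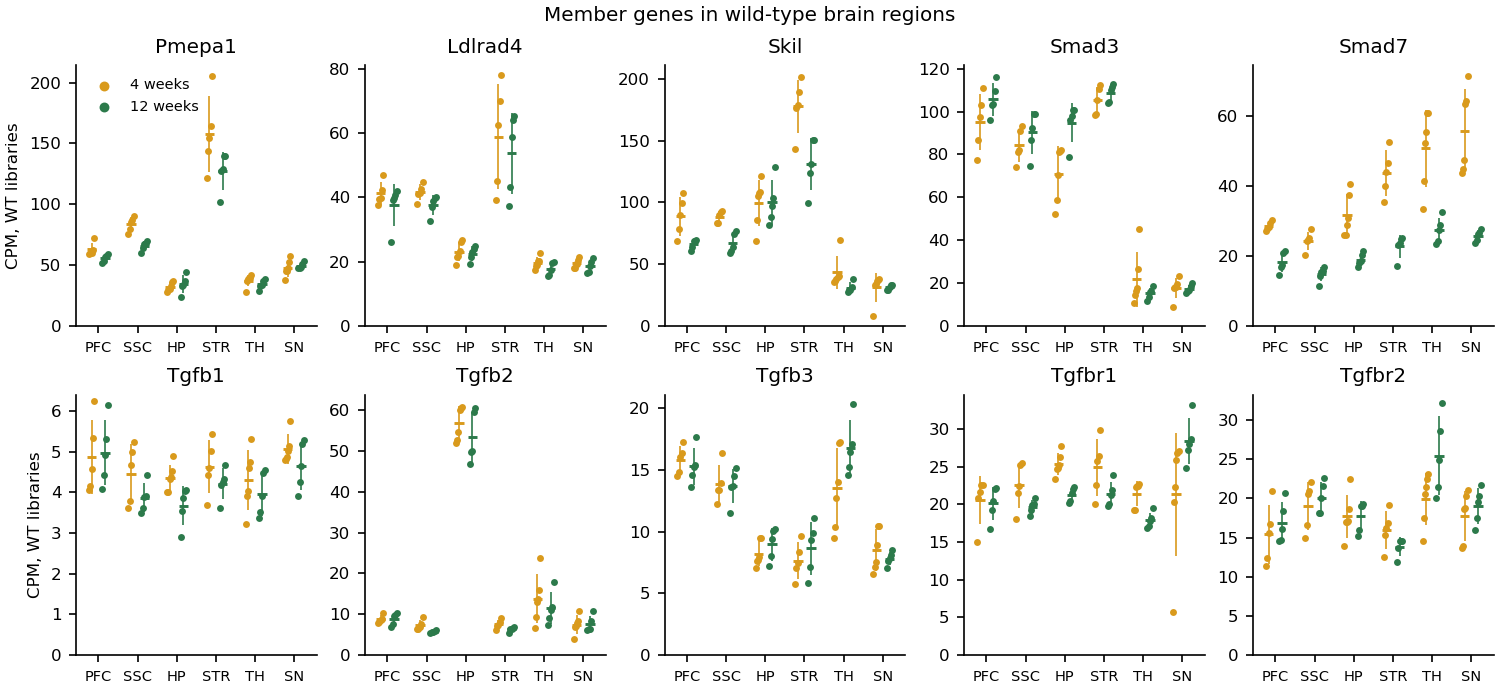
Wild-type level of each of the 10 members in the 6 regions at 4 and 12 weeks, in CPM; points are libraries, and bars and lines are means with SD. Pmepa1, Skil and Ldlrad4 peak in striatum, Tgfb2 peaks in hippocampus (56.8 and 53.3 CPM), and Smad3 is low in thalamus and nigra.

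Levels of different genes were compared per kilobase of exon. In wild-type striatum at 4 weeks Pmepa1 had 32.1 CPM per kb, Smad3 19.0, Skil 18.3, Ldlrad4 11.0 and Smad7 9.65. The receptors and ligands were lower: Tgfbr1 had 3.82 CPM per kb, Tgfb3 2.26, Tgfbr2 1.96, Tgfb2 1.31 and Tgfb1 0.918. On this scale the brakes among the 10 members, and Smad3, were above the receptors and ligands among them in 4-week wild-type striatum.

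Knockout striatum had less Pmepa1 at both ages. At 4 weeks the wild-type libraries held 122, 143, 154, 165 and 205 CPM, the heterozygous ones 144, 157, 158, 159 and 164 CPM, and the knockout ones 76.5, 86.0, 94.4, 112 and 116 CPM. All 5 knockouts were below all 5 wild types and all 5 heterozygotes; 3.63% of genes tested had no overlap of knockouts and wild types. The fitted difference of knockout from wild type was -0.70 ± 0.13 (log2, SE), one of the values that chose the gene. The 3 lowest knockouts were the libraries with high cortical markers, in which 8 striatal projection neuron markers summed to 4915 to 7364 CPM, against 7733 to 14096 CPM in wild type. Without those 3 and WT 92 the difference was -0.48 ± 0.15, over 2 knockouts and 4 wild types. In bulk tissue, fewer cells of a type and less RNA per cell cannot be told apart.

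At 12 weeks the wild-type striatal libraries held 102, 127, 129, 139.7 and 140.1 CPM of Pmepa1, the heterozygous ones 122, 124, 129, 134 and 138 CPM, and the knockout ones 67.5, 78.1, 85.3, 86.5 and 106 CPM. The groups overlapped at a single point, where the highest knockout (KO 4) stood above the lowest wild type (WT 3). The fitted difference was -0.60 ± 0.10, again a value used by the rule, and it ran from -0.70 to -0.54 when any 1 library was left out. At this age the striatal projection neuron markers summed to 7913 to 10291 CPM in knockouts and 7821 to 10595 in wild types, and the cortical markers stayed at 7.76 CPM or lower in all 15 libraries.

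In nigra at 12 weeks the wild-type libraries held 47.2, 47.6, 48.4, 51.2 and 53.2 CPM, the heterozygous ones 47.7 to 55.2 CPM, and the knockout ones 37.5, 37.9, 38.1, 38.3 and 38.7 CPM. The knockouts fell in a band of about 1 CPM, below every other library of the region and age, and the fitted difference was -0.38 ± 0.05. Of all genes tested there, 1.19% had no overlap of knockouts and wild types. The 6 dopamine neuron markers, which include Th and Slc6a3, summed to 2189 to 3453 CPM in these knockouts and 3053 to 3923 CPM in the wild types. The part of this marker difference in the Pmepa1 value was not tested.

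The difference just inside the rule was the nigral -0.38 and the next below 0 was -0.23 ± 0.17 in 12-week hippocampus. In the 9 region and age sets that did not enter the rule, Pmepa1 was not called (adjusted p 0.224 to 1), with differences from -0.23 to 0.28. Values were below 0 in 7 of these sets and above 0 in both thalamic sets. In prefrontal cortex at 4 weeks the knockouts (52.7 to 58.8 CPM) did not overlap the wild types (59.2 to 72.3 CPM), where 1.93% of genes did not overlap either way, and the difference was -0.18 ± 0.06. In nigra at 4 weeks it was -0.10 ± 0.12, -0.05 without WT 92 and -0.17 without WT 42, KO 44 and KO 91. In thalamus at 4 weeks it was 0.28 ± 0.10 (adjusted p = 0.266), with 41.3 to 49.2 CPM in knockouts and 27.8 to 41.5 CPM in wild types. These wild types include the 3 libraries with low thalamic markers, and without those Pmepa1 was not called either.

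Heterozygotes did not share the lower striatal Pmepa1. Their difference from wild type was -0.01 ± 0.12 at 4 weeks and 0.02 ± 0.10 at 12 weeks in striatum, and 0.04 ± 0.05 in 12-week nigra, none of them called. Over all 12 sets none of the 10 members was called in heterozygotes by edgeR or by DESeq2. Of those 120 gene and set pairs, 7 had an unadjusted p under 0.05 by edgeR and 8 by DESeq2. The share of all genes under that looser threshold is not given here or below, so such counts have no background beside them. At the adjusted threshold, the share of all genes called was 0% to 0.00648%. Akap11 itself was among the genes called in each set except 4-week hippocampus and 4-week nigra. By region that share was 0.00626% and 0.00613% in prefrontal cortex (4 and 12 weeks), 0.00627% and 0.00629% in somatosensory cortex, 0% and 0.00608% in hippocampus, 0.00648% and 0.0064% in striatum, 0.00639% and 0.0064% in thalamus, and 0% and 0.00606% in nigra. The single member whose heterozygotes and wild types did not overlap was Smad7 in 4-week prefrontal cortex. The share of all genes without overlap there was 0.319%, and in the other sets it was 0.313% in 12-week prefrontal cortex, 0.577% and 0.277% in somatosensory cortex, 0.548% and 0.389% in hippocampus, 0.434% and 0.371% in striatum, 0.965% and 1.3% in thalamus, and 0.253% and 0.418% in nigra (4 and 12 weeks).

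Among the other 9 members, Skil fell in 12-week knockout striatum. Its gene, chr3:31095058-31122577 (GRCm38) on the plus strand, encodes the corepressor SnoN. The wild-type libraries held 99.4, 124, 131, 150.2 and 150.3 CPM, the heterozygous ones 98.1 to 142 CPM, and the knockout ones 82.1, 84.5, 88.9, 99.5 and 100.2 CPM. Here 2 knockouts stood just above the lowest wild type, the same library (WT 3) that was lowest for Pmepa1. The difference was -0.54 ± 0.11 (adjusted p = 0.00872), and the adjusted p was 0.00133 to 0.0324 when any 1 library was left out. In this comparison 4.42% of all 15622 genes tested were called.

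At 4 weeks Skil was not called in striatum (-0.31 ± 0.12, adjusted p = 0.177, and 0.0425 to 0.403 when any 1 library was left out). The wild-type libraries held 143, 176.5, 178.5, 189 and 201 CPM and the knockouts 117.1, 119.9, 132, 169 and 179.7 CPM. The 3 knockouts below the whole wild-type range were the ones with high cortical markers, and the other 2 lay inside it. Without the 4 libraries with such markers the difference was -0.03 ± 0.12 (adjusted p = 0.911).

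Tgfb2 was the member that rose. In 12-week striatum the wild-type libraries held 5.51, 6.29, 6.29, 6.54 and 6.80 CPM, the heterozygous ones 5.30 to 7.35 CPM, and the knockout ones 6.98, 7.76, 8.38, 9.55 and 10.4 CPM. All knockouts were above all wild types; 5.6% of genes tested had no overlap between these groups in either direction. The difference was 0.44 ± 0.12 (adjusted p = 0.0398). This call was close to the threshold: it was lost in 10 of the 15 refits that left out 1 library (adjusted p up to 0.116), with no filter on low counts (0.0585), with only wild type and knockout in the fit (0.0627) and with a replicate block (0.063).

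At 4 weeks the Tgfb2 difference in striatum was 0.45 ± 0.12 (adjusted p = 0.0568), and DESeq2 called it (adjusted p = 0.00925). Wild-type libraries held 6.10 to 9.15 CPM and knockouts 8.98 to 12.5 CPM, with 1 wild type (WT 913) inside the knockout range. The 3 knockouts with high cortical markers were the 3 highest, and without the 4 marked libraries the difference was 0.23 ± 0.15 (adjusted p = 0.462). In knockouts Tgfb2 stayed far below its hippocampal level at either age.

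**Figure D3:**
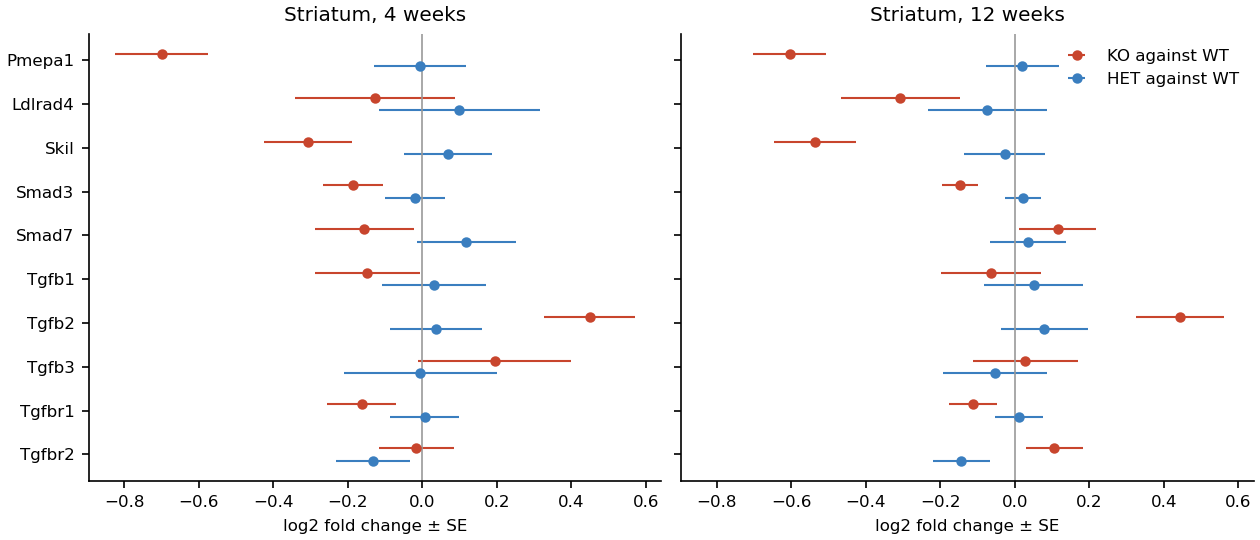
Fitted log2 difference of knockout and of heterozygote from wild type in striatum for the 10 members, with SE, at 4 and 12 weeks. In knockouts Pmepa1 (-0.70 and -0.60) and Skil (-0.31 and -0.54) lie below 0 and Tgfb2 (0.45 and 0.44) above it; the Pmepa1 values chose the gene.

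The remaining 7 members were not called in knockout striatum. Smad3 was nearest, with -0.19 ± 0.08 at 4 weeks (adjusted p = 0.23) and -0.15 ± 0.05 at 12 weeks (adjusted p = 0.116), where DESeq2 called it. Ldlrad4 was at -0.31 ± 0.16 at 12 weeks (adjusted p = 0.382) with widely spread libraries, 37.4 to 65.1 CPM in wild type and 38.1 to 54.1 CPM in knockouts. Smad7 was at -0.16 and 0.12, Tgfb1 at -0.15 and -0.06, Tgfb3 at 0.19 and 0.03, Tgfbr1 at -0.16 and -0.11, and Tgfbr2 at -0.02 and 0.11 (log2 difference at 4 and 12 weeks). Without the 4 marked libraries the 4-week values were -0.02 for Smad3, -0.36 for Tgfb3 and 0.22 for Ldlrad4, against -0.19, 0.19 and -0.13 with them, and the other 4 were -0.39 to -0.11; none was called. The median of the 10 members was -0.15 at 4 weeks and -0.09 at 12 weeks, beside a median of -0.0015 and 0.0053 over all genes tested. The member medians include Pmepa1, whose values chose the set, so they are a description only. The 4-week median also includes the 4 marked libraries. At 4 weeks 3.35% of the 15425 genes tested were called, and none of these 9 members was.

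Outside striatum, edgeR called none of the members in the 9 sets that the rule did not use. Of those 90 pairs 15 had an unadjusted p under 0.05, a looser threshold than that of the shares below. DESeq2 called 1 pair, Smad7 in 4-week prefrontal cortex. The share of all genes called in these sets was 0.0125% and 0.0123% in prefrontal cortex (4 and 12 weeks), 0.0564% and 0.0252% in somatosensory cortex, 0.00609% and 0.00608% in hippocampus, 0.0128% and 0.0064% in thalamus, and 0.00617% in 4-week nigra. Genes without overlap of knockouts and wild types made up 0.871% in 12-week prefrontal cortex, 0.652% and 1.01% in somatosensory cortex, 0.505% and 0.298% in hippocampus, 1.05% and 1.94% in thalamus, and 0.45% in 4-week nigra; no member was among them. That Smad7 value was -0.54 ± 0.11 (adjusted p = 0.135 by edgeR). Its libraries held 27.2, 27.6, 28.4, 29.4 and 30.2 CPM in wild type, 18.0 to 26.7 CPM in the 6 heterozygotes, and 16.4, 18.1, 20.1, 20.2 and 23.2 CPM in knockouts, so both mutant groups lay below all wild types. The heterozygous difference was -0.32 ± 0.11 (adjusted p = 0.847). In 12-week nigra, where 0.0364% of genes were called, none of the other 9 members was called. The largest value there was 0.26 ± 0.12 for Tgfb3, and Tgfbr1 was at -0.26 ± 0.12.

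The knockout difference was also compared between ages within each region. None of the 58 gene and region pairs tested was called by edgeR or by DESeq2, and 0% of all genes were called in each of the 6 regions. At the looser threshold of an unadjusted p under 0.05, each tool had 9 pairs. The values for Skil in striatum (-0.31 and -0.54) are thus not shown to differ between ages when all libraries are used. This comparison was not refitted without the 4 striatal libraries with high cortical markers, which moved the 4-week Skil value towards 0. Whether the ages differ without them was not tested.

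A longer list of 79 pathway genes, with the 10 members left out, was read beside these values. It was drawn from general knowledge, but with earlier results of these data known. The counts called on the list are therefore a description, not an independent test of the pathway. Its classes are 10 further ligands, 12 genes of latency and activation, 13 receptors and co-receptors, 6 Smads, 18 inhibitors and cofactors and 20 general targets. In knockout striatum 73 of the 79 passed the filter on low counts at each age. At 4 weeks 8 were called, 1 higher and 7 lower, and at 12 weeks 9 were called, 2 higher and 7 lower, beside 3.35% and 4.42% of all genes. Over the list the median difference was -0.07 at 4 weeks and -0.05 at 12 weeks.

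The genes that fell at both ages were Inhba, Fst, Acvr1c, Acvrl1 and Tagln. Activin is a TGF-beta relative that signals through its own receptors to Smad2 and Smad3. Inhba, which encodes its subunit, fell from 8.36 ± 1.80 to 3.29 ± 0.79 CPM at 4 weeks (wild type to knockout, mean ± SD, n = 5; log2 difference -1.34 ± 0.18, SE, adjusted p = 0.000607) and from 8.69 ± 1.89 to 3.23 ± 1.03 CPM at 12 weeks (-1.44 ± 0.20, adjusted p = 0.000492). Fst, encoding follistatin, which binds and neutralises activin, fell from 6.51 ± 1.20 to 2.17 ± 0.82 CPM and from 4.40 ± 0.42 to 1.99 ± 0.24 CPM (-1.58 ± 0.22 and -1.15 ± 0.15). For both genes the knockout libraries lay below all wild types at both ages. Of all genes tested, 3.63% at 4 weeks and 5.6% at 12 weeks had no overlap of knockouts and wild types in either direction. A ligand subunit and an inhibitor of that ligand were thus lower in the same libraries.

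Acvr1c (ALK7), a type I receptor of the activin and Nodal branch, fell by 1.10 ± 0.26 on the log2 scale at 4 weeks and by 1.25 ± 0.15 at 12 weeks. Acvrl1 (ALK1), a type I receptor best known from blood vessels, fell by 0.96 ± 0.17 and by 1.497 ± 0.16. At 12 weeks Acvrl1 stood at 57.0 to 96.4 CPM in wild type, 47.7 to 92.0 in heterozygotes and 22.7 to 36.01 in knockouts. The knockouts overlapped neither group, and 5.6% of genes tested had no overlap of knockouts and wild types. The 5 endothelial markers summed to 60.1 to 98.6 CPM in those wild types and 68.4 to 88.9 CPM in the knockouts. Tagln, a smooth muscle actin-binding protein and general TGF-beta target, fell at both ages (log2 difference -2.51 ± 0.20 and -1.85 ± 0.37), and the 4 mural cell markers summed to 92.4 to 136 CPM in wild type and 79.0 to 128 CPM in knockouts at 4 weeks.

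The genes called at a single age were smaller changes or low levels. At 4 weeks Bmp6, a ligand of the bone morphogenetic branch, was lower by 0.81 ± 0.17 (adjusted p = 0.0139), Col1a1, a collagen, by 0.59 ± 0.15 (adjusted p = 0.0433), and Smad9, a Smad of that branch, was higher by 0.51 ± 0.12 (adjusted p = 0.0291). At 12 weeks Cdkn1a, a cell cycle inhibitor, was lower by 0.75 ± 0.17 and Furin, a protease that matures TGF-beta precursors, by 0.30 ± 0.08. With no filter on low counts neither Col1a1 (adjusted p = 0.0542) nor Furin (0.0502) was called. Thbs1, thrombospondin 1, an activator of latent TGF-beta, was higher by 1.12 ± 0.29 at a low level (0.76 ± 0.28 CPM in wild type and 1.68 ± 0.37 in knockouts). Itgav, the integrin subunit that takes part in the same activation step, was higher by 0.31 ± 0.05 (83.2 ± 4.63 to 104 ± 5.13 CPM).

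Without the 4 libraries with high cortical markers, 8 genes of the list were again called at 4 weeks, but only 4 of them were the same: Tagln (-2.73), Fst (-1.34), Inhba (-1.16) and Acvrl1 (-0.68). Acvr1c was then at -0.56 (adjusted p = 0.055) and Bmp6, Col1a1 and Smad9 were not called either. The other 4 were Cdkn1a (-1.17), Id3 (-0.78) and Klf10 (-0.55), which are lower, and Bmp2 (0.63), named after their values were seen. With only wild type and knockout in the fit, 4 genes were called at 4 weeks in place of 8.

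**Figure D4:**
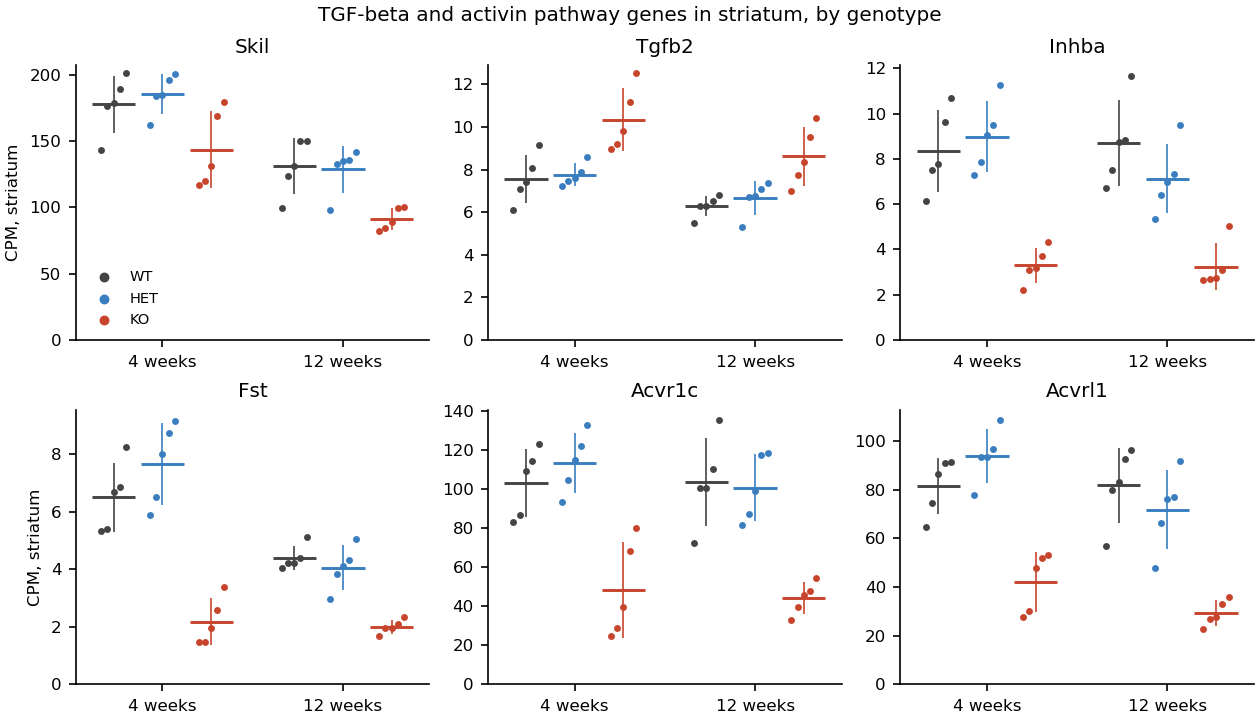
Level (CPM) in each striatal library by genotype and age for Skil, Tgfb2, Inhba, Fst, Acvr1c and Acvrl1; points are libraries, and bars and lines are means with SD. None of these genes was called in heterozygotes by edgeR. At 12 weeks the Skil library HET 1 (98.1 CPM) lies below all wild types and within the knockout range. The 12-week Tgfb2 heterozygotes (5.30 to 7.35 CPM) reach into the knockout range (from 6.98 CPM), and some Acvrl1 heterozygotes lie below the wild types. The knockout means of Inhba (3.29 and 3.23 CPM) are below those of wild type (8.36 and 8.69 CPM).

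Outside striatum edgeR called none of the listed pathway genes in knockouts, and in heterozygotes it called none in any region. In the other 9 knockout sets 56 of 679 pairs had an unadjusted p under 0.05, and DESeq2 called 5. In the 12 heterozygous sets 60 of 900 pairs did, and DESeq2 called 3. In wild-type mice the 5 genes that fell in knockout striatum at both ages were enriched in striatum: Acvrl1 by 2.90 and 2.86, Acvr1c by 2.67 and 2.37, Inhba by 2.44 and 2.20, Fst by 3.35 and 1.98, and Tagln by 2.29 and 1.80 over the mean of the other regions (log2, 4 and 12 weeks, all called). The 4 genes that fell at a single age differed among themselves: Cdkn1a was higher in striatum (0.74 and 0.61), Col1a1 (-2.31 and -2.20) and Furin (-0.19 and -0.24) were lower, and Bmp6 was not called (0.24 and 0.20). Over the whole list 46 of 77 genes were called in that comparison at 4 weeks (27 higher, 19 lower) and 56 of 77 at 12 weeks (30 higher, 26 lower). Of all genes tested there, 52.9% were called at 4 weeks and 67.3% at 12 weeks, so most genes passed. The largest called deficits in striatum were those of Timp1 (-3.18) and Thbs1 (-2.33) at 4 weeks and of Col1a2 (-2.34) and Thbs1 (-2.30) at 12 weeks.

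With age, Smad7 fell in every region of wild-type mice. Its mean was 24.3 to 55.8 CPM over the 6 regions at 4 weeks and 14.8 to 27.3 CPM at 12 weeks. The difference of 12 from 4 weeks was -1.10 ± 0.15 in nigra, -0.91 ± 0.11 in striatum, -0.89 ± 0.15 in thalamus, -0.72 ± 0.12 in hippocampus, -0.72 ± 0.10 in somatosensory and -0.64 ± 0.10 in prefrontal cortex (adjusted p 0.000289 to 0.00401). All 6 calls held when any 1 library was left out. Without WT 42 and WT 92 of 4-week nigra the nigral difference was -0.95 ± 0.10 (adjusted p = 0.000215). The share of all genes called between ages was 4.24% in nigra and 12.9% to 22.8% in the other 5 regions. In striatum the 5 wild-type libraries at 4 weeks held 35.3 to 52.6 CPM and those at 12 weeks 17.0 to 25.1 CPM.

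Skil also fell with age in prefrontal cortex (-0.42 ± 0.11), somatosensory cortex (-0.39 ± 0.08) and striatum (-0.41 ± 0.11, adjusted p = 0.0314, lost in 6 of 10 refits without 1 library). Its value in thalamus was lower, at -0.49 ± 0.19, and was not called (adjusted p = 0.103). Pmepa1 fell in somatosensory cortex (-0.34 ± 0.06, adjusted p = 0.00225) and was at -0.27 ± 0.12 in striatum (adjusted p = 0.16). Other calls were Tgfbr1 in hippocampus (-0.24 ± 0.06) and thalamus (-0.26 ± 0.07, adjusted p = 0.0313, and 0.056 without the 3 thalamic libraries with low thalamic markers), Tgfb2 in somatosensory cortex (-0.35 ± 0.12, adjusted p = 0.0498, and 0.0593 with no filter on low counts), and Smad3, the one rise, in hippocampus (0.43 ± 0.12, adjusted p = 0.0374, lost in 6 of 11 refits without 1 library). Tgfb1, Tgfb3, Tgfbr2 and Ldlrad4 were not called in any region.

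The ages are different libraries, and the date or batch of processing is not given, so age and any batch that goes with it cannot be told apart. Other values move with age too: the summed level of 5 oligodendrocyte markers in wild-type striatum was 9473 to 19292 CPM at 4 weeks and 4301 to 5777 CPM at 12 weeks, and in nigra 20114 to 56513 and 10034 to 12801 CPM. The part of this in the Smad7 difference was not tested. In the pathway list 10 of 71 genes tested were called in striatum, 9 of them lower at 12 weeks, led by Col1a2 (-1.30) and Bmp4 (-1.09). Smad9 was higher (0.61). Of all genes, 12.9% to 22.8% were called between ages in the regions other than nigra, striatum included, so this count is a description only.

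**Figure D5:**
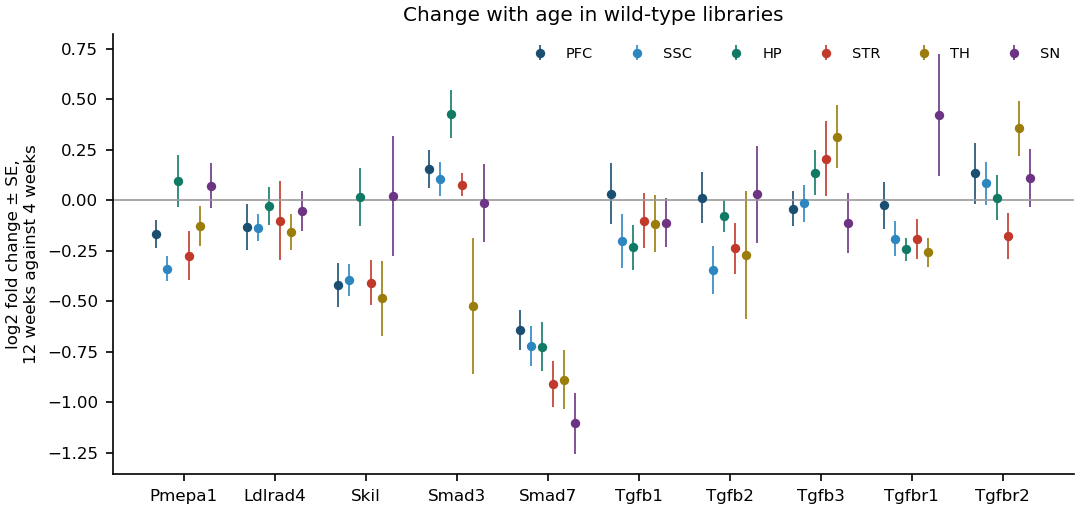
Fitted log2 difference of 12 from 4 weeks in wild-type mice for the 10 members in the 6 regions, with SE. The 6 Smad7 values lie between -1.10 and -0.64, the called Skil values are -0.42 to -0.39 in 3 regions, and its lowest value, -0.49 in thalamus, was not called.

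The genes most like Pmepa1 were ranked by Pearson correlation of group means (log2 of CPM + 1) among 14088 genes; groups share their libraries' depth and region makeup, so this is a description with no p. Over the 12 wild-type groups the leaders were Slc9a5 (r = 0.977), Pde4b (0.972), Fam78a (0.972), Gpr89 (0.969) and Prkar2b (0.963). Over all 36 groups they were Utrn (0.945), Gsg1l (0.941), Slc9a5 (0.939), Gpr89 (0.938) and Tbl1x (0.935). The nearest member was Ldlrad4, 77th with r = 0.891 over the wild-type groups. Skil came next among the members (r = 0.614). Slc9a5, the leader in wild type, kept its striatal level in knockouts, with group means (log2 of CPM + 1) of 6.46 in wild type and 6.33 in knockouts at 4 weeks and 6.55 and 6.60 at 12 weeks. Utrn, the leader over all groups, was at 7.07 and 6.68 at 4 weeks and at 6.92 and 6.73 at 12 weeks. The 36 groups include the knockout groups whose Pmepa1 values chose the gene. A leader of that ranking is therefore favoured to be lower there too.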

How the data were processed

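The deposited table holds estimated counts per gene for 28338 genes in 186 libraries. It was made by the authors with Salmon and mm10, per the submitters' processing notes, which give no versions; 77.9% of values above 0 were not whole, and counts were rounded before testing. RNA was prepared with a stranded mRNA kit, per the labels' protocols. Groups came from the labelled genotype, region and age. The members and gene lists were chosen with earlier results of these data known.

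Counts were tested with edgeR 4.0.16 (R 4.3.3): TMM scaling, filterByExpr, quasi-likelihood F test, Benjamini-Hochberg adjustment over all genes tested, called at an adjusted p under 0.05. Genotypes were fitted per region and age, with all 3 genotypes sharing 1 estimate of spread; regions were compared within wild type per age, each against the mean of the other 5; ages were compared within wild type per region. The genes named were the 10 members and the listed pathway genes called in knockout striatum, the listed genes with the 2 largest called rises and falls for regions and ages, and the 5 genes most like Pmepa1 in each set of groups. Alternatives were DESeq2 1.42.0, RLE scaling, no low-count filter, only the 2 genotypes compared, a replicate block, and leaving out libraries; wild-type fits without the libraries that stood apart were added after seeing the data. Neighbouring regions were compared with scipy 1.17.1 (two-sided exact permutation). The fits were tested on simulated data. No 2 libraries of a group were near-identical (390 pairs, lowest chi-square per degree of freedom 7.97).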

Additional observations from a re-analysis of the deposited data

Results flagged for a closer look

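A library was singled out where the gap between the highest or lowest value and its nearest neighbour was large for its group (Dixon's test at the 95% level). Of 360 groups examined, 27 gave such a library, where chance gives about 1 in 20. All values are CPM and no explanation was tested.

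Among the receptors and ligands, Tgfbr1 was 14.999 in prefrontal cortex of WT 142 and 5.67 in nigra of WT 92 at 4 weeks, and 21.8 in thalamus of KO 3 at 12 weeks. Tgfbr2 was 20.5 in 12-week nigra of KO 2, and Tgfb1 was 5.76 in 4-week nigra of WT 23. Tgfb3 was 8.66 in 4-week hippocampus of KO 51, and at 12 weeks 12.1 in prefrontal cortex of KO 1, 12.5 in nigra of HET 2 and 21.2 in thalamus of HET 2.

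For Smad3 the libraries were hippocampus WT 3 (78.9) and thalamus HET 4 (17.1) at 12 weeks, and nigra KO 163 (24.6) and WT 92 (8.93) at 4 weeks. Smad7 was 23.7 in hippocampus of HET 2, 28.1 in striatum of HET 2, 17.0 in striatum of WT 3 and 34.8 in thalamus of KO 2, all at 12 weeks. The striatal WT 3 library was also the lowest wild type for Pmepa1 and Skil.

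Skil was 106.5 in prefrontal cortex of HET 941, 8.21 in nigra of WT 92 and 69.8 in thalamus of WT 913 at 4 weeks, and 98.1 in striatum of HET 1 at 12 weeks. Pmepa1 was 53.2 in hippocampus of HET 941, 72.3 in prefrontal cortex of WT 914, 91.7 in somatosensory cortex of HET 93 and 27.8 in thalamus of WT 42, all at 4 weeks. Ldlrad4 was 26.0 in 12-week prefrontal cortex of WT 2 and 25.7 in 4-week nigra of HET 93. The 4-week nigra library WT 92 stood apart for Skil, Smad3 and Tgfbr1, and it is the library with low Akap11 and low dopamine neuron markers.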

How the results depend on the processing

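DESeq2 called 1 member in 4-week knockout prefrontal cortex (Smad7) and 1 besides Pmepa1 in 4-week knockout striatum (Tgfb2), where edgeR called 0. Of the listed pathway genes DESeq2 called 5 in the other 9 knockout sets and 3 in the heterozygous sets, where edgeR called 0. In 12-week knockout striatum 1 member besides Pmepa1 was called in place of 2 with no low-count filter, with only the 2 genotypes, and with the replicate block. With only the 2 genotypes 4 listed pathway genes were called in 4-week knockout striatum in place of 8. Libraries of a genotype at 12 weeks share numbers 1 to 5 with the other genotypes, and no label says what a number marks. Correlations of same-numbered libraries had means of 0.016 to 0.234 over the 12 checks. In 11 checks at least 1 pair was at or under 0.1. In hippocampus, knockout with wild type, all 5 pairs were above it (0.112 to 0.320), and there the block left 0 members and 1 gene in all called, as without it. With the replicate block the call of Pmepa1 in 12-week wild-type nigra against other regions was also lost (-0.18, adjusted p = 0.0555, against 0.0471). Apart from this and the lost Tgfb2 call in 12-week knockout striatum, the block changed no other member's call.

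With 1 library left out, members called besides Pmepa1 ranged from 1 to 2 in 12-week and 0 to 2 in 4-week knockout striatum, and members called from 0 to 1 in 4-week knockout prefrontal cortex, 4 to 7 in 4-week wild-type hippocampus against other regions, 1 to 2 between ages in prefrontal cortex and in striatum, and 1 to 3 in thalamus. Pathway genes called in 4-week knockout striatum ranged from 5 to 9, and Pmepa1 in 12-week knockout nigra from -0.40 to -0.36. Uncalled Pmepa1 values near 0 changed sign. Heterozygous prefrontal cortex at 12 weeks ranged from -0.038 to 0.050 (also -0.0018, -0.019 and -0.0047), somatosensory cortex from -0.0069 to 0.050 (also -0.000987), 12-week striatum from -0.046 to 0.045, 4-week striatum from -0.077 to 0.105 (also 0.028 and 0.0028) and 4-week thalamus from -0.0066 to 0.118; knockout 12-week thalamus ranged from -0.034 to 0.057 (also -0.000190, -0.021 and -0.0070). The cause was not tested. In an alternative chosen after seeing the data, without 3 thalamic wild-type libraries with low thalamic markers, 1 member in place of 2 was called between ages in thalamus. Each group had 5 or 6 libraries, which limits the precision.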
